A study of Homo sapiens with 16 samples.

Results

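The genes described here repair DNA double-strand breaks by homologous recombination or repair DNA crosslinks in the Fanconi anaemia pathway. The list holds 36 genes chosen by name, and 32 of them have at least 1 probe set that carries their symbol alone, out of 19775 such genes on the array. The other 4 (BRCA2, RBBP8, FANCA and FANCD2) are not analysed here. The 32 genes have 72 probe sets, and each gene was read from the one with the highest mean signal.

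In homologous recombination, MRE11, RAD50 and NBN bind the broken end, ATM and ATR signal the damage, and the BRCA proteins with the strand exchange genes act where the end is paired with the sister chromatid. In the Fanconi pathway, a core complex with the ubiquitin ligase FANCL modifies FANCD2 and FANCI at stalled forks. Cells that lack these functions are known to be sensitive to inhibitors of poly(ADP-ribose) polymerase (PARP), and many of the genes are expressed most in S phase.

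HCT116 and RKO, established human colon cancer cell lines, were treated for 3 days with 0.5 µM 5-aza-dC (5-aza-2'-deoxycytidine, a DNA methyltransferase inhibitor), 150 nM TSA (a histone deacetylase inhibitor), PJ-34 (a PARP inhibitor) or any combination of these, and each line had an array labelled control. PJ-34 was used at 3 µM in HCT116, while the concentration for RKO is not settled and was 2 or 3 µM. All cells grew in medium with serum and antibiotics, and total RNA was hybridised to 16 Affymetrix U133 Plus 2.0 arrays, 8 per line and 1 per condition. No condition was repeated, so a drug effect compares the 4 arrays of a line with the drug with the 4 without it, over the other drugs.

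The deposited signal is a linear intensity scaled to a trimmed mean of 1000.14 to 1000.16 on every array. On 2 RKO arrays the levels went against the labels. The 20 genes raised most by 5-aza-dC in HCT116 had a mean log2 signal of 7.70 on the RKO array labelled PJ-34, beside 7.57 to 7.65 on the other RKO arrays that read high, and of 6.22 on the array labelled PJ-34/5-aza-dC, beside 6.13 to 6.50 on those that read low. These 2 doubtful arrays were kept under their labels, and RKO results are given with and without both. Of 11 colon epithelium markers, 7 read under 250 on all 8 RKO arrays, among them CDH1, CDX2 and VIL1, and 3 did so in HCT116 (CDH17, CDX1 and CDX2). All 4 blood and 5 fibroblast markers read under 250 on every RKO array, and all but HBB and COL1A1 did so on every HCT116 array. The ratio of 3' to 5' control probe sets was 0.834 to 1.02 for GAPDH and 1.39 to 1.61 for ACTB over the 16 arrays.

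**Figure D1:**
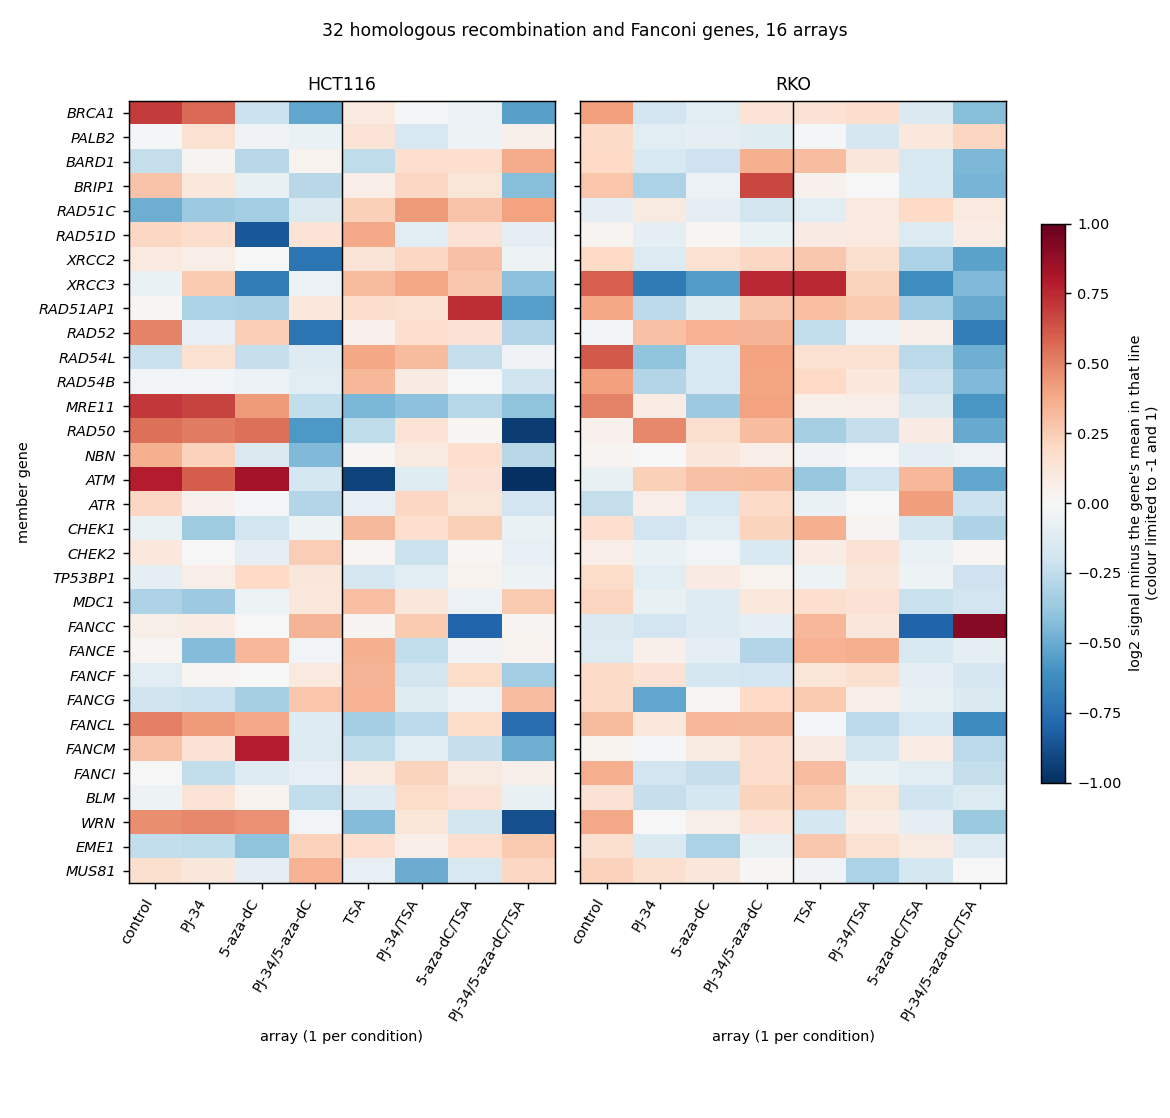
Each row is a member gene in the order of its role, from the BRCA complex at the top to helicases and nucleases at the bottom, and each column is 1 array. Colour is the log2 signal minus the mean of that gene over the 8 arrays of its line. In HCT116, MRE11, RAD50, ATM, FANCL and WRN read above their means on the control, PJ-34 and 5-aza-dC arrays, and RAD51C read below its mean there.

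TSA in HCT116 was the drug and line in which members passed the test. RAD51C, which acts in strand exchange, rose, while MRE11 (the nuclease of the end-binding complex), ATM (the kinase that signals breaks), FANCL and WRN (a RecQ helicase) fell. On GRCh38.p14 RAD51C lies at chr17:58692573-58735611, MRE11 at chr11:94415570-94512412, ATM at chr11:108223067-108369102 and FANCL at chr2:58159243-58241380. That is 1 of 32 members higher (3.12%), where 4.16% of 35373 probe sets were higher, and 4 of 32 lower (12.5%), where 4.83% were lower. An unadjusted p under 0.05 was found for 8 of 32 members (25%) and for 24% of probe sets. The median TSA effect was 0.03 on the log2 scale over the members and -0.07 over all probe sets, with 17 members positive and 15 negative. All adjusted p-values here are from limma with Benjamini-Hochberg adjustment over all probe sets of the fit. In RNA from whole cultures, a change in the mix of cells and a change in RNA per cell cannot be told apart.

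The signal of RAD51C was 4240, 4621, 4671 and 5404 on the HCT116 arrays labelled control, PJ-34, 5-aza-dC alone and PJ-34/5-aza-dC. It was 7024, 8017, 7246 and 7869 on those labelled TSA, PJ-34/TSA, 5-aza-dC/TSA and PJ-34/5-aza-dC/TSA. All 4 arrays with TSA were above all 4 without it. The TSA effect was 0.67 on the log2 scale (SE 0.10, adjusted p = 1.76e-03), with the signal higher in 4 of 4 pairs of arrays that differ in TSA alone. It passed the test in all 8 fits that leave out an array, at 0.64 to 0.71. The second probe set of RAD51C rose in 4 of 4 pairs as well, but by 0.30 (SE 0.11, adjusted p = 0.121), which missed the threshold.

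The 4 members that fell read high on the control, PJ-34 and 5-aza-dC arrays and lower on the other 5. For MRE11 the signal was 1364, 1333 and 1123 on the control, PJ-34 and 5-aza-dC arrays, 703 on the PJ-34/5-aza-dC array, and 609, 627, 685 and 631 on the TSA, PJ-34/TSA, 5-aza-dC/TSA and PJ-34/5-aza-dC/TSA arrays. For ATM the signal was 1995, 1759, 2058 and 1025 without TSA and 611, 1063, 1278 and 528 with TSA, in the same order. The PJ-34/5-aza-dC array, which had no TSA, therefore read close to or within the range of the arrays with TSA. FANCL gave 4492, 4262, 4120 and 2895 without TSA and 2505, 2638, 3602 and 1871 with it. WRN gave 1691, 1711, 1689 and 1208 without TSA and 909, 1334, 1083 and 668 with it. The groups with and without TSA overlapped for ATM, FANCL and WRN through that array alone, and did not overlap for MRE11.

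On the log2 scale MRE11 fell by 0.78 (SE 0.21, adjusted p = 0.0327) and ATM fell by 1.02 (SE 0.27, adjusted p = 0.0311). FANCL fell by 0.59 (SE 0.16, adjusted p = 0.0357) and WRN fell by 0.69 (SE 0.20, adjusted p = 0.0432). Each was lower in 4 of 4 pairs. These calls lay close to the threshold. Without the filter on low signals RAD51C alone passed (adjusted p = 0.0398), and with a variance model without a trend no member did (RAD51C adjusted p = 0.107). ATM passed in 4 of the 8 fits that leave out an array, WRN in 3, and MRE11 and FANCL in 2 each. The number of members past the test was 1 without the control, PJ-34, 5-aza-dC or PJ-34/5-aza-dC/TSA array, 2 without the TSA array, 3 without the PJ-34/TSA array, 5 without the 5-aza-dC/TSA array and 8 without the PJ-34/5-aza-dC array. Over these 8 fits the number of all probe sets past the test moved too, from 920 to 5475, beside 3180 with every array. In the fit without the PJ-34/5-aza-dC array the additions were RAD50 (-0.71, adjusted p = 0.0280), CHEK1 (0.44, adjusted p = 0.0304) and EME1 (0.46, adjusted p = 0.0155).

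RAD50, the partner of MRE11 that bridges broken ends, read 2873, 2814 and 2862 on the control, PJ-34 and 5-aza-dC arrays of HCT116, and 1314 on the PJ-34/5-aza-dC array. With TSA it read 1644, 2156, 1981 and 1014 on the TSA, PJ-34/TSA, 5-aza-dC/TSA and PJ-34/5-aza-dC/TSA arrays. All 5 later values lay below the first 3. Its TSA effect was -0.52 (SE 0.21, adjusted p = 0.145). A fit of HCT116 alone with a term for PJ-34 together with 5-aza-dC, chosen after these values were seen, put 6 members past the test for TSA, namely the 5 above and RAD50 (adjusted p = 0.0150). Over all probe sets, 4619 of 35373 passed for TSA in that fit, beside 3180 without the added term. The interaction term itself was -1.23 for RAD50 (SE 0.26, adjusted p = 0.185) and -1.45 for ATM (SE 0.36, adjusted p = 0.250), and no member and no probe set passed the test for it, while 5 members and 3298 of 35373 probe sets had an unadjusted p under 0.05.

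**Figure D2:**
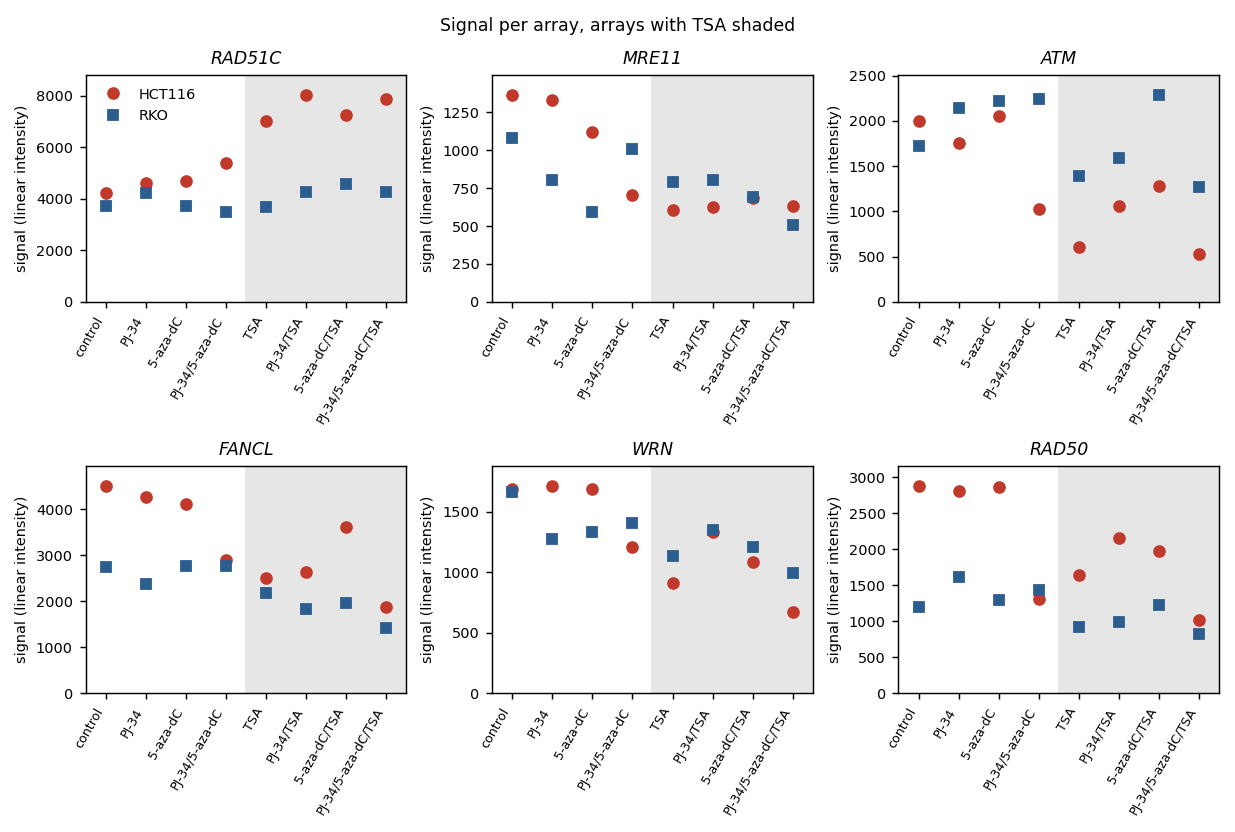
Linear signal of 6 members on each array of HCT116 (circles) and RKO (squares), with arrays that had TSA shaded and 1 array per point. In HCT116, RAD51C lies at 7024 to 8017 with TSA and at 4240 to 5404 without it, and the other 5 members read lower on the PJ-34/5-aza-dC array than on the 3 arrays to its left.

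Other members of these roles were as follows in HCT116 under TSA. All 8 genes of strand exchange had a positive effect, from 0.03 for RAD52 to 0.67 for RAD51C, and only RAD51C passed the test. Of the 9 genes of break sensing and signalling, 2 passed, both lower, and the third member of the end-binding complex, NBN, stood at 0.00 (SE 0.13). A second NBN probe set fell by 0.54 (adjusted p = 0.0493). NBN has 5 probe sets, and all but the brightest averaged lower with TSA. The dimmest read 198 to 325 without TSA and 160 to 184 with it, and the remaining ones overlapped. The brightest probe set of NBN therefore disagreed with the others. CHEK1, the checkpoint kinase downstream of ATR, gave 0.33 (adjusted p = 0.130), and its second probe set rose by 0.53 (adjusted p = 0.0286). CHEK1 has 4 probe sets, and the dimmest read lower with TSA, at 34 to 141 beside 131 to 211 without it. The remaining probe set overlapped, at 1485 to 1859 with TSA and 1444 to 2079 without it. The CHEK1 probe sets therefore disagreed. EME1, a subunit of the MUS81 nuclease, gave 0.33, and its second probe set rose by 0.67 (adjusted p = 0.0292). The 4 measured genes of the BRCA complex ranged from -0.27 for BRCA1 to 0.23 for BARD1, and none passed. Of the 6 measured genes of the Fanconi core complex with FANCM, FANCL alone passed.

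For 3 of the 5 members past the test the array holds 7 further probe sets that were tested, and 6 of these moved in the same direction, though none passed. The further ATM probe sets ran from -0.65 to 0.43.

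S-phase genes moved with TSA too. The 12 genes used as S-phase markers had a mean log2 signal of 13.51 to 13.77 on the HCT116 arrays with TSA and of 12.92 to 13.32 on those without, the highest of these being the PJ-34/5-aza-dC array, and 8 of 12 rose (median 0.58). Of 12 genes of G2 and mitosis, 4 rose (median 0.32). The fibroblast marker COL1A1 fell with TSA in HCT116 (-1.37), and the summed signal of the 5 fibroblast markers was 978 to 1846 with TSA and 2035 to 4150 without, with the other 4 dim on every array. The part of proliferation in the values of RAD51C, MRE11, ATM, FANCL and WRN was not tested.

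In RKO, none of the 32 members passed the test for TSA, where 2 of 33862 probe sets (0.00591%) did. At an unadjusted p under 0.05, 4 members and 4158 probe sets stood out. FANCL had the largest effect, -0.54 (SE 0.12, adjusted p = 0.157). Its signal was 2738, 2369, 2767 and 2761 on the control, PJ-34, 5-aza-dC alone and PJ-34/5-aza-dC arrays and 2181, 1836, 1968 and 1423 on the TSA, PJ-34/TSA, 5-aza-dC/TSA and PJ-34/5-aza-dC/TSA arrays, with no overlap. RAD50 followed at -0.49 (SE 0.17, adjusted p = 0.272) and RAD52, which anneals single strands, at -0.48 (SE 0.22, adjusted p = 0.399). Without the 2 RKO arrays that went against their labels, again no member passed, and FANCL stood at -0.41, RAD50 at -0.22 and RAD52 at -0.26.

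The difference of the TSA effect between the lines did not pass for any member, where 0.283% of 42119 probe sets did, and 3 of 32 members (9.38%) had an unadjusted p under 0.05, as did 11.9% of probe sets. For ATM it was -0.64 (SE 0.27, adjusted p = 0.364), with an effect of -1.02 in HCT116 and of -0.38 in RKO. Without the 2 doubtful RKO arrays the ATM difference was -1.06 (SE 0.32, adjusted p = 0.177) and its effect in RKO -0.13. For RAD51C it was 0.53 (SE 0.15, adjusted p = 0.145), with 0.67 in HCT116 and 0.14 in RKO. When the PJ-34/5-aza-dC array of RKO was left out, this difference was 0.61 (SE 0.15, adjusted p = 0.0472) and passed, while without both doubtful arrays it was 0.55 (adjusted p = 0.290). The RKO signal of RAD51C stayed between 3491 and 4556 over all 8 arrays.

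**Figure D3:**
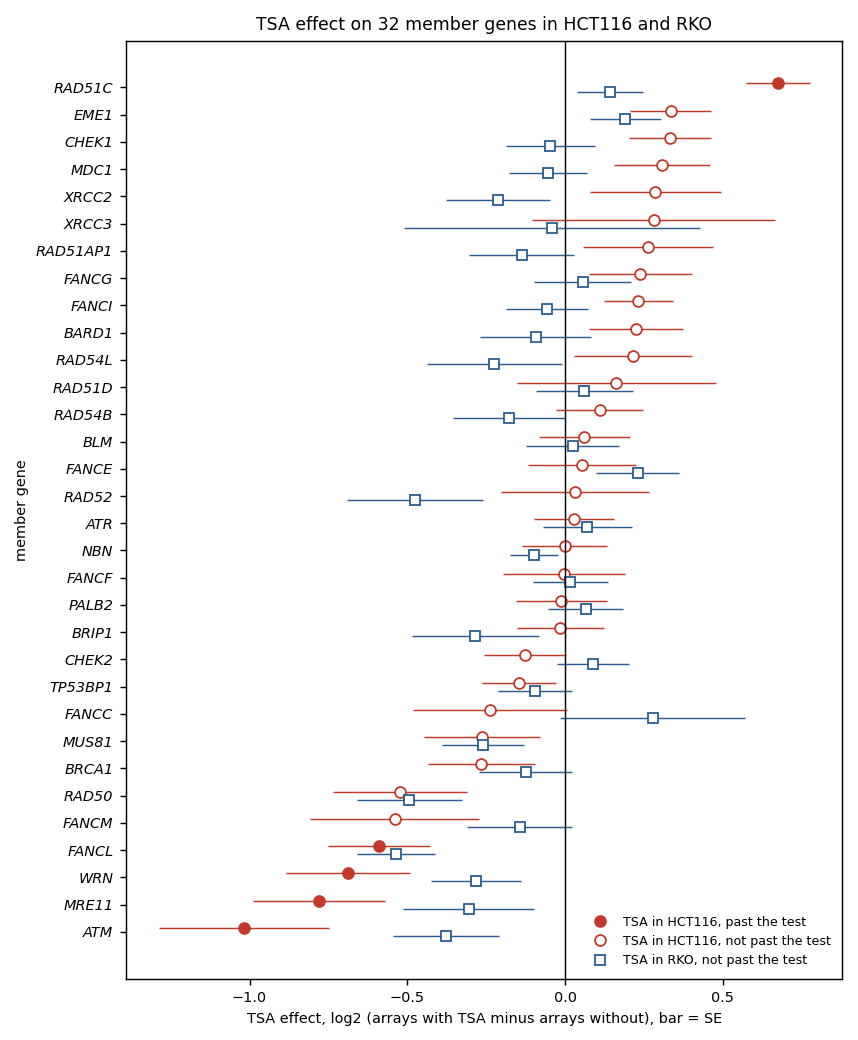
TSA effect on the log2 scale (horizontal axis) for 32 members in HCT116 (circles) and RKO (squares), with bars of 1 SE and filled symbols for members past the test. RAD51C at 0.67 and ATM at -1.02 lie at the ends in HCT116, and FANCL lies at -0.59 in HCT116 and -0.54 in RKO.

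For 4 of the members past a test, RefSeq's promoter table (GRCh38.p14) has a window of 100 bases just before the gene's start that overlaps no annotated gene, and these windows are shown so that the genes that moved can be read beside their start regions. RAD51C starts at position 58692573 of chromosome 17 and its window is chr17:58692473-58692572. That of ATM is chr11:108222967-108223066, that of RAD51AP1 is chr12:4538790-4538889 and that of RAD54L is chr1:46247588-46247687, all on the plus strand. The last 2 genes are described below for 5-aza-dC in RKO. Capitals mark CCAAT and TTTGAA (the CHR element of cell cycle genes) on either strand.
RAD51C: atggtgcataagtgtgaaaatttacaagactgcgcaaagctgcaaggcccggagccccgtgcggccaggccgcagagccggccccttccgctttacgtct
ATM: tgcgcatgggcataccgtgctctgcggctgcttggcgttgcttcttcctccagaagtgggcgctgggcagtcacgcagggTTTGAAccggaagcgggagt
RAD51AP1: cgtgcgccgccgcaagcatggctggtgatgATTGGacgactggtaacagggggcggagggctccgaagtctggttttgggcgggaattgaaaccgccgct
RAD54L: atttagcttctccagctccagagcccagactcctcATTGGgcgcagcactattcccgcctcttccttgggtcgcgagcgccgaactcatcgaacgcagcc

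The RAD51AP1 and RAD54L windows each held 1 CCAAT on the minus strand, the ATM window held TTTGAA, and the RAD51C window held neither. Over the longer windows of 300 bases that the table gives, 28 members have an entry. CCAAT occurred in 15 of them (53.6%) and in 34.6% of all 35116 promoters, TTTGAA in 4 (14.3%) and in 15.2%, and any of the E2F letters TTTCCCGC, TTTGGCGC and TTTCGCGC in 2 (7.1%), XRCC2 and FANCC, and in 2.74%. The members' windows held 12 to 41 CG dinucleotides (median 25), and the median over all promoters was 14. These counts describe letters, not binding or methylation.

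5-aza-dC gave no member past the test in HCT116, where 0.673% of probe sets were higher and 0.0707% lower, and 4 of 32 members (12.5%), all lower, had an unadjusted p under 0.05, as did 10.6% of probe sets. The effect was negative for 23 of 32 members, with a median of -0.12 against -0.01 over all probe sets. BRCA1, which recruits PALB2 and BRCA2 to breaks, stood lowest. Its signal was 2434, 2224, 1601 and 1480 on the control, PJ-34, TSA and PJ-34/TSA arrays and 1290, 1045, 1439 and 1027 on those with 5-aza-dC alone, with PJ-34, with TSA and with both, with no overlap. The effect was -0.67 (SE 0.17, adjusted p = 0.107), lower in 4 of 4 pairs. The second BRCA1 probe set read 365 to 693 without 5-aza-dC and 450 to 476 with it, so its groups overlapped. RAD50 gave -0.48 (SE 0.21, adjusted p = 0.442) and XRCC3, the partner of RAD51C, with low signals of 104 to 220 in HCT116, gave -0.45 (SE 0.39, adjusted p = 0.727). Without the HCT116 TSA array, BRCA1 (-0.79, adjusted p = 0.0139), RAD50 (-0.70, adjusted p = 0.0416) and NBN (-0.48, adjusted p = 0.0318) passed. Over the fits that leave out an array, the number of all probe sets past the test ran from 95 to 1606, beside 263 with every array.

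In RKO under the deposited labels, 5-aza-dC gave no member past the test, nor any of 33862 probe sets (0%), and an unadjusted p under 0.05 was found for 2 members and 1759 probe sets. The largest effects were -0.43 for XRCC3 (SE 0.47), -0.35 for RAD51AP1 (SE 0.17) and -0.35 for MRE11 (SE 0.21), each with an adjusted p of 0.882 or above. With 1 array left out they ran from -0.93 to -0.17, from -0.57 to -0.24 and from -0.56 to -0.17. Without the 2 arrays that went against their labels, 4 of 32 members were lower (12.5%), where 0.853% of 31057 probe sets were lower, and none higher, where 1.11% were. XRCC3 then stood at -1.06 (adjusted p = 0.292) and MRE11 at -0.57 (adjusted p = 0.181). The effect was negative for 25 of 32 members, with a median of -0.27 against 0.04 over all probe sets. The 4 members act at the strand exchange step or at crosslinks: RAD51AP1 stimulates strand pairing, RAD54L and RAD54B are DNA translocases, and FANCI is the partner of FANCD2.

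RAD51AP1 read 7634, 7194 and 7010 on the RKO control, TSA and PJ-34/TSA arrays and 5377, 4619 and 4113 on the 5-aza-dC, 5-aza-dC/TSA and PJ-34/5-aza-dC/TSA arrays. The array labelled PJ-34 read 4869 and that labelled PJ-34/5-aza-dC read 7026, the first within the range of the 5-aza-dC arrays and the second within that of the others. The effect without both was -0.64 (SE 0.09, adjusted p = 1.73e-03). RAD54L read 2075, 1512 and 1510 against 1213, 1128 and 967, with 1028 and 1793 on the 2 arrays left out, in the same order. RAD54B read 3157, 2718 and 2552 against 2121, 2037 and 1745, with 1935 and 3108 on those 2, and FANCI read 8140, 7843 and 6045 against 5404, 5851 and 5369, with 5547 and 7147. None of the 4 overlapped between the 3 arrays with and the 3 arrays without 5-aza-dC. They were picked by the test on these same arrays, so the lack of overlap adds no support. The share of all probe sets without overlap was not counted. RAD54L fell by 0.61 (SE 0.14, adjusted p = 0.0407), RAD54B fell by 0.51 (SE 0.11, adjusted p = 0.0311) and FANCI fell by 0.39 (SE 0.09, adjusted p = 0.0498). The FANCI call lay at the threshold. With both arrays left out, the fit has fewer residual degrees of freedom than the 4 of the full line. It was not rerun with a further array left out or under another setting.

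The S-phase markers were low on the same RKO arrays. Their mean log2 signal was 13.18, 13.36, 13.31 and 13.29 on the arrays labelled PJ-34, 5-aza-dC, 5-aza-dC/TSA and PJ-34/5-aza-dC/TSA and 13.60 to 13.72 on the other 4. The part of proliferation in the lower signals of RAD51AP1, RAD54L, RAD54B and FANCI was not tested. Between the lines, the 5-aza-dC effect differed past the test for no member, where 0.0427% of probe sets passed, and an unadjusted p under 0.05 was found for 4 of 32 members (12.5%) and 7.44% of probe sets.

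**Figure D4:**
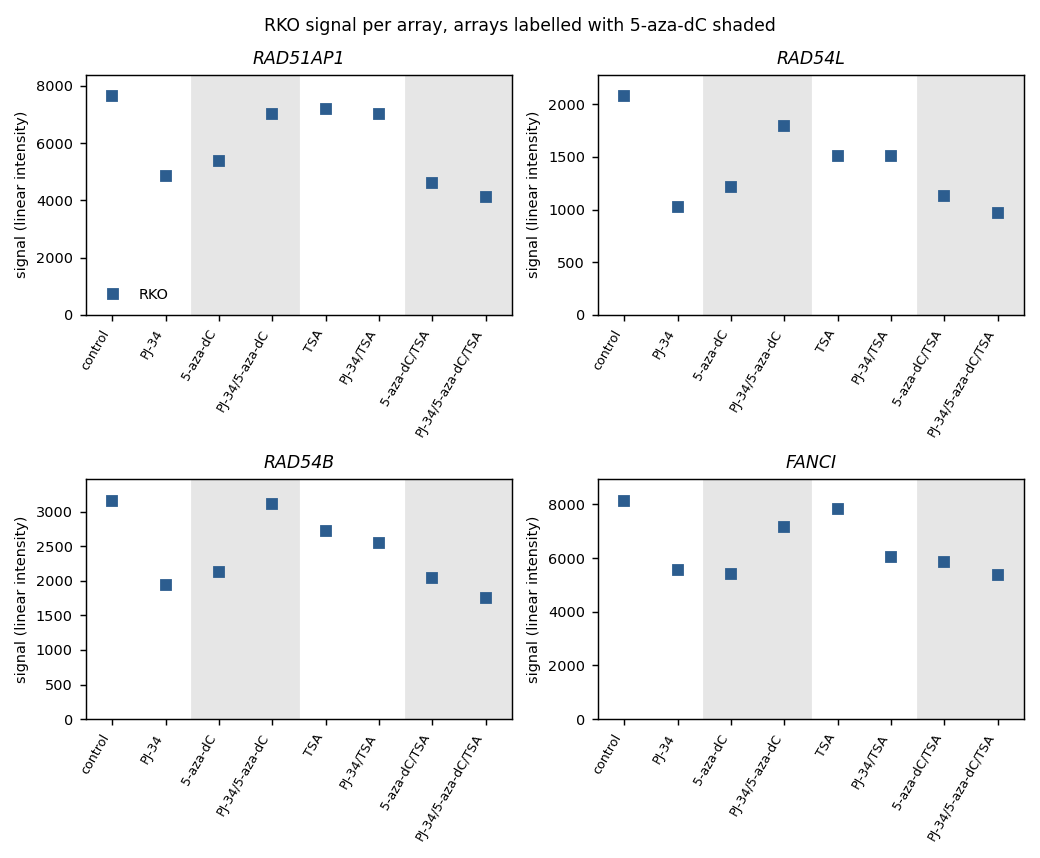
Linear signal of RAD51AP1, RAD54L, RAD54B and FANCI on the 8 RKO arrays, 1 array per point, with the arrays labelled as holding 5-aza-dC shaded. In each panel the array labelled PJ-34 lies with the low arrays and the array labelled PJ-34/5-aza-dC with the high ones; for RAD51AP1 they read 4869 and 7026.

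PJ-34 gave no member past the test in either line, nor any probe set (0% in both). At an unadjusted p under 0.05, 1 member and 1323 probe sets stood out in HCT116, and no member and 895 probe sets in RKO. Without the 2 RKO arrays that went against their labels, no member passed either. The largest member effects in HCT116 were -0.46 for RAD52 (SE 0.23), -0.43 for RAD50 (SE 0.21) and -0.42 for ATM (SE 0.27), all with an adjusted p of 0.981. With 1 array left out these ran from -0.65 to -0.30, from -0.66 to -0.24 and from -0.77 to -0.15. In RKO they were 0.37 for FANCC, a core complex gene (SE 0.29), -0.23 for FANCL (SE 0.12) and -0.20 for FANCG (SE 0.15), all with an adjusted p of 1. With 1 array left out FANCC ran from 0.01 to 0.55, FANCL from -0.34 to -0.13 and FANCG from -0.36 to 0.00, and without both doubtful arrays they stood at 0.75, -0.36 and -0.13. The difference of the PJ-34 effect between the lines passed for no member or probe set (0%), and an unadjusted p under 0.05 was found for no member and 1468 probe sets. The interactions of 5-aza-dC with TSA, of PJ-34 with 5-aza-dC and of PJ-34 with TSA, fitted over both lines, passed for no member and no probe set (0% in each), and an unadjusted p under 0.05 was found for 2, 3 and 0 members and for 1887, 2872 and 1307 probe sets. The drug effects within a line share the same 8 arrays. With 4 residual degrees of freedom within a line, a miss does not show that a gene stayed the same.

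On the single arrays with all 3 drugs, the median ratio of a member's signal to the control of its line was 0.883 in HCT116 and 0.744 in RKO. A ratio of 0.5 or less was found for 6 of 32 members in HCT116 (BRCA1, MRE11, RAD50, ATM, FANCL and WRN), where 14.2% of probe sets had one, and for 3 in RKO (XRCC3, RAD54L and MRE11), where 6.62% did. MRE11, at 0.463 and 0.472, is in both sets. This array held the lowest signal for 10 of 32 members in HCT116, where it did so for 13.4% of probe sets, and for 17 in RKO, where it did so for 18.1%. These are ratios of 1 array to 1 array and carry no test.

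More members differed between the lines than under any drug. In HCT116, 7 of 32 members were higher than in RKO (21.9%), where 21.1% of 42119 probe sets were, and 13 were lower (40.6%), where 22.8% were. NBN, RAD51D, RAD51AP1 and XRCC2 were lower by over 1 on the log2 scale. Without the 2 RKO arrays that went against their labels, 7 members were higher and 14 lower (43.8%). In that fit 14603 of 41191 probe sets (35.5%) passed in either direction, beside 18463 of 42119 with all arrays.

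NBN, the adaptor that brings ATM to the end-binding complex, had a signal of 2945 to 5111 in HCT116 (median 4142) and of 8029 to 9252 in RKO (median 8534), with no overlap. The difference was -1.10 (SE 0.08, adjusted p = 1.2e-08), and all 4 further NBN probe sets were lower in HCT116 too. RAD51D, which acts in strand exchange, read 171 to 399 in HCT116 (median 337) and 735 to 865 in RKO (median 820), a difference of -1.40 (SE 0.17, adjusted p = 7.16e-06). XRCC2, the partner of RAD51D, read 434 to 884 (median 765) and 1019 to 1776 (median 1644), a difference of -1.03 (SE 0.14, adjusted p = 1.74e-05). Neither overlapped. RAD51AP1 differed by -1.15 (SE 0.15, adjusted p = 9.65e-06), and its highest HCT116 array, at 4383, lay above its lowest RKO array, at 4113.

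Further members lower in HCT116 were FANCM, the translocase that anchors the core complex (-0.90, adjusted p = 2.37e-04), RAD54L (-0.80, adjusted p = 2.59e-04), FANCF (-0.74, adjusted p = 5.1e-05), PALB2, which links BRCA1 and BRCA2 (-0.67, adjusted p = 1.51e-05), ATM (-0.65, adjusted p = 1.11e-03), RAD54B (-0.49, adjusted p = 1.75e-03), BRCA1 (-0.40, adjusted p = 0.0165), MUS81 (-0.38, adjusted p = 7.78e-03) and FANCI (-0.34, adjusted p = 3.4e-03). PALB2 and FANCF did not overlap between the lines. ATM read 528 to 2058 in HCT116 (median 1171) and 1264 to 2283 in RKO (median 1932), and its control arrays read 1995 and 1723, so at the control alone the order was the opposite.

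The 7 members higher in HCT116 were EME1, RAD50, RAD51C, CHEK2, FANCL, TP53BP1 and BRIP1. EME1 read 3535 to 5608 in HCT116 (median 5067) and 2168 to 3265 in RKO (median 2728), a difference of 0.79 (SE 0.08, adjusted p = 6.77e-07). RAD50 differed by 0.76 (SE 0.12, adjusted p = 5.95e-05), RAD51C by 0.59 (SE 0.07, adjusted p = 7.36e-06) and FANCL by 0.52 (SE 0.11, adjusted p = 6.88e-04). CHEK2, a checkpoint kinase activated by ATM, differed by 0.54 (SE 0.09, adjusted p = 1.23e-04), and TP53BP1, which opposes end resection, by 0.50 (SE 0.08, adjusted p = 1.23e-04). BRIP1, a helicase bound by BRCA1, differed by 0.44 (SE 0.14, adjusted p = 0.0159). The RAD51C difference combined 4240 against 3716 at the control with the TSA effect in HCT116.

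All 8 HCT116 arrays were above all 8 RKO arrays for CHEK2, TP53BP1 and EME1, where 9.85% of probe sets were, and below them for PALB2, RAD51D, XRCC2, NBN and FANCF, where 9.85% were as well. The other 24 members overlapped. Of the 24 further probe sets of these members, 21 had the same sign and 16 passed the test. In fits that leave out an array, 18 of the 20 differences passed in all 16, while BRCA1 passed in 10 and BRIP1 in 9. The second probe sets of BRCA1, BRIP1, RAD50 and TP53BP1 had the same sign and did not pass, at -0.22, 0.16, 0.43 and 0.20, and the other probe sets of TP53BP1 had the opposite sign, at -0.31 and -0.54.

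**Figure D5:**
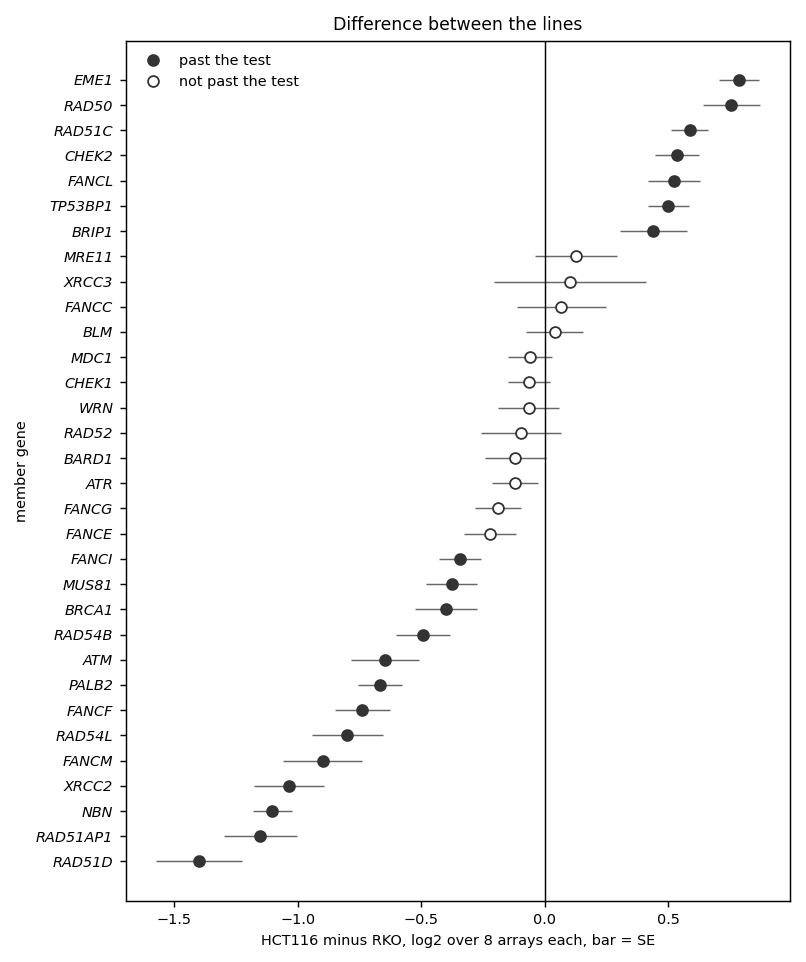
Difference of the log2 signal, HCT116 minus RKO over 8 arrays each (horizontal axis), for 32 members with bars of 1 SE and filled circles for members past the test. EME1 at 0.79 is highest and RAD51D at -1.40 is lowest.

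The 12 members that did not differ past the test were BARD1, XRCC3, RAD52, MRE11, ATR, CHEK1, MDC1, FANCC, FANCE, FANCG, BLM and WRN, with differences from -0.22 for FANCE to 0.13 for MRE11. CHEK1 (-0.06, SE 0.09) and MDC1, a scaffold on damaged chromatin (-0.06, SE 0.09), had the smallest errors of these. BLM, a RecQ helicase, read 1574 to 2114 in HCT116 and 1541 to 2172 in RKO.

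Of 53 other genes of homologous recombination, the Fanconi pathway and its checkpoints, 51 have a probe set, of which 50 were tested in each line. Under TSA in HCT116, 2 of 50 rose (4%) and 2 fell (4%), close to the 4.16% and 4.83% over all probe sets. Those that rose were EXO1, a nuclease that resects ends (0.62, SE 0.13, adjusted p = 0.0124), and TIPIN, a fork protection factor (0.43, SE 0.12, adjusted p = 0.0434). ERCC1, a subunit of the nuclease that cuts at crosslinks, fell by 0.77 (SE 0.14, adjusted p = 6.31e-03) and WDR48, the cofactor of the enzyme that deubiquitinates FANCD2, fell by 0.46 (SE 0.13, adjusted p = 0.0406). In the other 5 combinations of drug and line, 0 of 50 passed. Of all probe sets, 0.673% were higher and 0.0707% lower under 5-aza-dC in HCT116, 0.00591% passed for TSA in RKO, and 0% elsewhere. The RKO counts of these genes keep both doubtful arrays and were not made without them, so they do not show that these genes stayed the same. Between the lines, 13 of 51 were higher in HCT116 (25.5%) and 23 lower (45.1%), where 21.1% and 22.8% of all probe sets were.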

How the data were processed

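RNA from 16 cultures was measured on as many arrays. The authors made the deposited intensity values with the Affymetrix program GCOS, whose version the sources used here do not give, and scaled each array to the same trimmed mean. Of 54675 probe sets, 62 controls were left out, 41091 carry 1 gene symbol in the platform annotation, 1801 several and 11721 none. Signals were floored at 50 and put on the log2 scale. Probe sets with a signal of 100 or more on at least 4 arrays were tested, and all 32 members passed this filter in every fit.

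Fits used limma 3.58.1 in R 4.3.3 (lmFit, eBayes with a trend). Each line was fitted alone with the 3 drugs as terms (4 residual degrees of freedom). Both lines were fitted together for the line difference, differences of drug effects and interactions (5 residual degrees of freedom). P-values of the 13 comparisons were adjusted by Benjamini-Hochberg within each, with a threshold of 0.05. No condition was repeated, and no source names separate cultures within a condition. The residual of each fit therefore holds any drug interactions that the fit leaves out. It also holds differences between cultures and between arrays, which may be technical. These parts cannot be told apart, so the p-values do not measure the spread between like cultures. The number of arrays limits the precision.

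The members and all lists were chosen with earlier results of these data known. Members past any test and the 3 largest effects per drug and line are named, with the others given by role. Of the other pathway genes, up to 4 past a test are named per comparison. The fit of HCT116 alone was tested on simulated data for the TSA term, and the other terms and fits were not. Alternatives were a floor of 20, no filter, quantile normalization, no trend, a joint fit of both lines, the second brightest probe set, each array left out and both doubtful RKO arrays left out. A term for PJ-34 with 5-aza-dC in HCT116 was added after seeing the data.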

Additional observations from a re-analysis of the deposited data

Results flagged for a closer look

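ERCC1, a subunit of the nuclease that cuts at crosslinks, was the pathway gene for which the TSA effect differed between the lines past the test. Its signal in HCT116 was 5336, 5238, 6922 and 8954 on the control, PJ-34, 5-aza-dC alone and PJ-34/5-aza-dC arrays, and 4066, 2967, 3585 and 4769 on the TSA, PJ-34/TSA, 5-aza-dC/TSA and PJ-34/5-aza-dC/TSA arrays, with no overlap. In RKO it lay between 29019 and 32720 on all 8 arrays. The difference was -0.84 on the log2 scale (SE 0.16, adjusted p = 0.0492 in limma). It passed in 4 of 16 fits that leave out an array, at -1.02 to -0.70, and the adjusted p was 0.053 with a floor of 20, 0.223 without a filter, 0.0583 after quantile normalization, 0.401 without a trend and 0.169 without both doubtful RKO arrays.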

How the results depend on the processing

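No paired analysis was possible because every array has replicate number 1, so the numbers give no replicate block. The pairs counted in the text are arrays of 1 line that differ in 1 drug alone, and they were counted, not fitted. Of 243 member counts recomputed under an alternative, 230 stayed within 1.5 times the first count. Most comparisons had a first count of 0, and a 0 that stayed 0 is included here. A like count can also hold other genes. With the second brightest probe sets, RAD51C, MRE11 and ATM no longer passed for TSA in HCT116, while NBN, CHEK1 and EME1 did. Of 795 single effects, 694 kept their direction and side of the threshold, 97 were no longer past it, 3 were newly past it and 1 turned. That was MRE11 under 5-aza-dC in RKO, whose second brightest probe set gave 0.20. For TSA in HCT116, where 5 members passed, the count was 1 without a filter, 3 after quantile normalization (RAD51C, ATM and FANCL), 0 without a trend, 6 with the added PJ-34 and 5-aza-dC term and 1 to 8 with an array left out. For 5-aza-dC it was 4 in RKO without both doubtful arrays and 0 to 3 in HCT116 with an array left out. For the difference of the TSA effect between the lines it was 0 to 1 with an array left out. Between the lines, BRCA1 and BRIP1 missed the threshold without a filter and without a trend, and FANCI without a trend. The causes were not tested.

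Over all probe sets, TSA in HCT116 gave 3180 calls, 323 without a filter, 0 without a trend and 920 to 5475 with an array left out. 5-aza-dC in HCT116 gave 263, then 2, 19 and 95 to 1606 in the same order. With the added PJ-34 and 5-aza-dC term, TSA in HCT116 gave 4619 calls. In RKO, 5-aza-dC gave 0 calls, 610 without both doubtful arrays and 0 to 62 with 1 left out, and TSA gave 2, with 0 to 5 under the other settings and 0 to 75 with 1 left out. The difference of the 5-aza-dC effect gave 18 calls, 0 without a filter or a trend, 95 without both arrays and 0 to 38 with 1 left out. The difference of the TSA effect gave 119, 0 without a filter or a trend, 227 after quantile normalization and 0 to 689 with 1 left out. The difference of the PJ-34 effect gave 0 calls and 1 with a floor of 20, and the 3 interactions gave 0 calls each and 4 (5-aza-dC with TSA), 2 (PJ-34 with 5-aza-dC) and 1 (PJ-34 with TSA) without both arrays. With 1 array per condition, effects near the threshold depend on single arrays, and signals near 50 are not separated from background.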
